A study of Sus scrofa with 3 samples.

Results

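The genes described here are 10 inflammatory mediators: the cytokines IL6, IL1A, TNF, CSF2, OSM, IL7, IL27, IL15 and IL18, and PTGS2, the inducible cyclooxygenase that the array calls PGHS-2. Their probes were found by name in the annotation of a porcine expression array. They are 10 of the 6515 genes with a symbol on that array, and 20 of its 43603 probes belong to them. Of these probes 18 carry the gene's name or its sequence accession, and 2 (for PTGS2 and IL27) name the gene only in their description. All 10 genes had a probe well above background, by the flag of the scanner software, on every array.

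RNA was taken from PIE cells, a non-transformed line from the gut of an unsuckled newborn piglet, labelled as intestinal epitheliocytes. In each group the cells grew for 3 days, were kept for 48 h in medium alone or with lactobacilli, and then met ETEC PAMPs for 12 h. ETEC is enterotoxigenic Escherichia coli, which causes diarrhoea in piglets, and PAMPs are the molecular patterns by which cells sense a microbe. The ETEC group had no lactobacilli, the TL2937+ETEC group had Lactobacillus jensenii TL2937, and the TL2766+ETEC group had Lactobacillus plantarum TL2766. Each group was 1 culture on 1 array, all 3 arrays lay on 1 slide, and the unchallenged group of the design was not analysed here. Every value below is therefore from cells that had met the PAMPs. No spread between cultures can be given, and no difference below was tested. Array, culture and treatment cannot be told apart.

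These genes are the fast messengers of inflammation. A microbial pattern that meets a Toll-like receptor activates NF-kB, which switches on genes such as IL6, IL1A, TNF, CSF2 and PTGS2, and their products call and activate white blood cells, raise fever and change the permeability of the gut lining. IL7, IL15 and IL18 are made by gut epithelium more steadily and act on lymphocytes, while OSM and IL27 are known mainly as products of white blood cells.

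The probes are 60 bases long, and some of them show what each signal reads. IL6 had 3 probes that do not overlap. The brightest and the dimmest are shown, because probes that share no sequence gave the same order of the arrays. PTGS2 had 2 named probes that share 55 of their 60 bases, so they are nearly 1 measurement, and 30 of the shared bases are shown. For CSF2, which had 1 probe, the 30 bases at the end of the probe are shown, with the letters ATTTA in capitals.
IL6, brightest probe, bases 31 to 60: tacctcaaataaattgctaacttatacgta
IL6, dimmest probe, bases 1 to 60: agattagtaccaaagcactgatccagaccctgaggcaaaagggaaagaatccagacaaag
PTGS2, shared by both named probes: gtgtataaaaaactgttaacttcactgatt
CSF2, bases 31 to 60: gattagcaatATTTAttaacctATTTAtgt

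The 2 probes of IL1A overlap over 57 bases and differ at 3 of them. The differences are T18G, C19G and A25G, counted from 1 at the 5′ end of the brighter probe, with the base of the brighter probe first. They stand in capitals in the stretches below, which cover bases 10 to 39 of the brighter probe. The array annotation gives an Ensembl transcript for the brighter probe and a RefSeq transcript for the other.
IL1A, brighter probe: gtctgtatTCtagtaActgggagccctgta
IL1A, other probe: gtctgtatGGtagtaGctgggagccctgta

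The remaining sequences belong to genes whose probes disagreed or were dim, and to IL7, which was lower with lactobacilli. For TNF, the bright probe holds ATTTA and the dim one does not, and they do not overlap. The IL7 probes do not overlap either. OSM and IL27 rest on 1 named probe each.
TNF, bright probe, bases 31 to 60: aaaaacaaatATTTAtctgatcgagttgtc
TNF, dim probe, bases 1 to 60: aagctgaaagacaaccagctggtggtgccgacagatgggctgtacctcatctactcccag
IL7, probe with 5 spots, bases 31 to 60: gtccatgatacttaagagaggtatcaagag
IL7, probe with 1 spot, bases 31 to 60: cggagtggcaatataaaaactcaagagttt
OSM, bases 1 to 60: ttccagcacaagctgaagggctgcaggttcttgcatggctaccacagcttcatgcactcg
IL27, bases 1 to 60: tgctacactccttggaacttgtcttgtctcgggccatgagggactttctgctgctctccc

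ATTTA is the core of the AU-rich elements that are known to shorten the life of many cytokine messengers. The letters stood in 4 of the 18 named probes, namely both IL1A probes, the bright TNF probe and the CSF2 probe, which held 2 copies. The IL1A probes overlap and hold the same copy, so they do not count as separate sites. Of all 43603 probes 9.33% held ATTTA on the probe strand, 11.2% on the other strand, and 0.562% held 2 or more copies on the probe strand. A match describes the letters under the probe only. Of the genes with such a probe, CSF2 and IL1A were called higher with TL2766 than in ETEC and TNF was not.

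Levels are given as scaled intensities, that is, the processed signal of a probe divided by the 75th percentile of its array and brought back to a common size. They compare 1 probe across arrays, never probes with each other. Where 3 levels follow each other, they stand in the order ETEC, TL2937+ETEC, TL2766+ETEC. A difference is a difference of log2 levels, and the error given with it is the scanner software's error of the 2 spots, about 0.20 on the log2 scale for a bright probe. For bright probes this error is set by the software's fixed fraction of 0.1 of the signal and was not measured from the spots. Of the probes printed at 5 places, 25 were well above background on every array. In these, such a difference had a median standard deviation between spots of 0.087, 0.078 and 0.084 in the 3 comparisons. These errors cover spots, not cultures. Genes are called higher or lower when they differed at least 1.2-fold (0.263 on the log2 scale) and were well above background on both arrays.

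The 75th percentile of the signal ran from 459 to 503 across the arrays, and 60.8% to 62.5% of gene spots were well above background. Several defining markers of epithelium were at or near background. EPCAM had 18 probes, of which 0 were well above background on all arrays and 16 on none, KRT18 and CLDN4 were above background on no array, and KRT8, CLDN3 and CLDN7 read 13.9 to 23.9. Of 11 epithelial markers 9 had a probe and 4 were above background on all arrays, among them OCLN (922 to 1141). VIL1 (21.5 in ETEC and 14.2 in TL2766+ETEC) differed by -0.60 there and was not well above background in TL2937+ETEC, and CDH1, not well above background in TL2766+ETEC, was at least 1.46-fold below ETEC and 2.13-fold below TL2937+ETEC there. The endothelial markers PECAM1 (84031 to 86702) and CDH5 (55877 to 60380) were well above background with all their probes. All 5 endothelial markers had a probe and 4 were above background on all arrays. Within that list TEK read 1340, 2419 and 2189 and KDR read 532, 798 and 753, both higher with either lactobacillus. Of all genes 7.27% were called higher with TL2937 and 8.09% with TL2766. VWF went the other way. It read 22.7 in ETEC and 15.5 in TL2937+ETEC (-0.55). In TL2766+ETEC it was not well above background and at least 1.65-fold below ETEC. PECAM1 (-0.05 and -0.02) and CDH5 (-0.09 and -0.11) were within 1.2-fold of ETEC. Of 10 mesenchymal markers 7 had a probe and all 7 were above background on all arrays. VIM read 242690 to 252334 and ACTA2 41882 to 53721, while COL1A2, DCN, LUM, PDGFRB and THY1 read 28.5 to 82.9. Of the leukocyte markers 10 of 14 had a probe and 3 were above background on all arrays, PTPRC on none. CD14 read 623 to 741. The part of these markers in the differences given next was not tested.

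**Figure D1:**
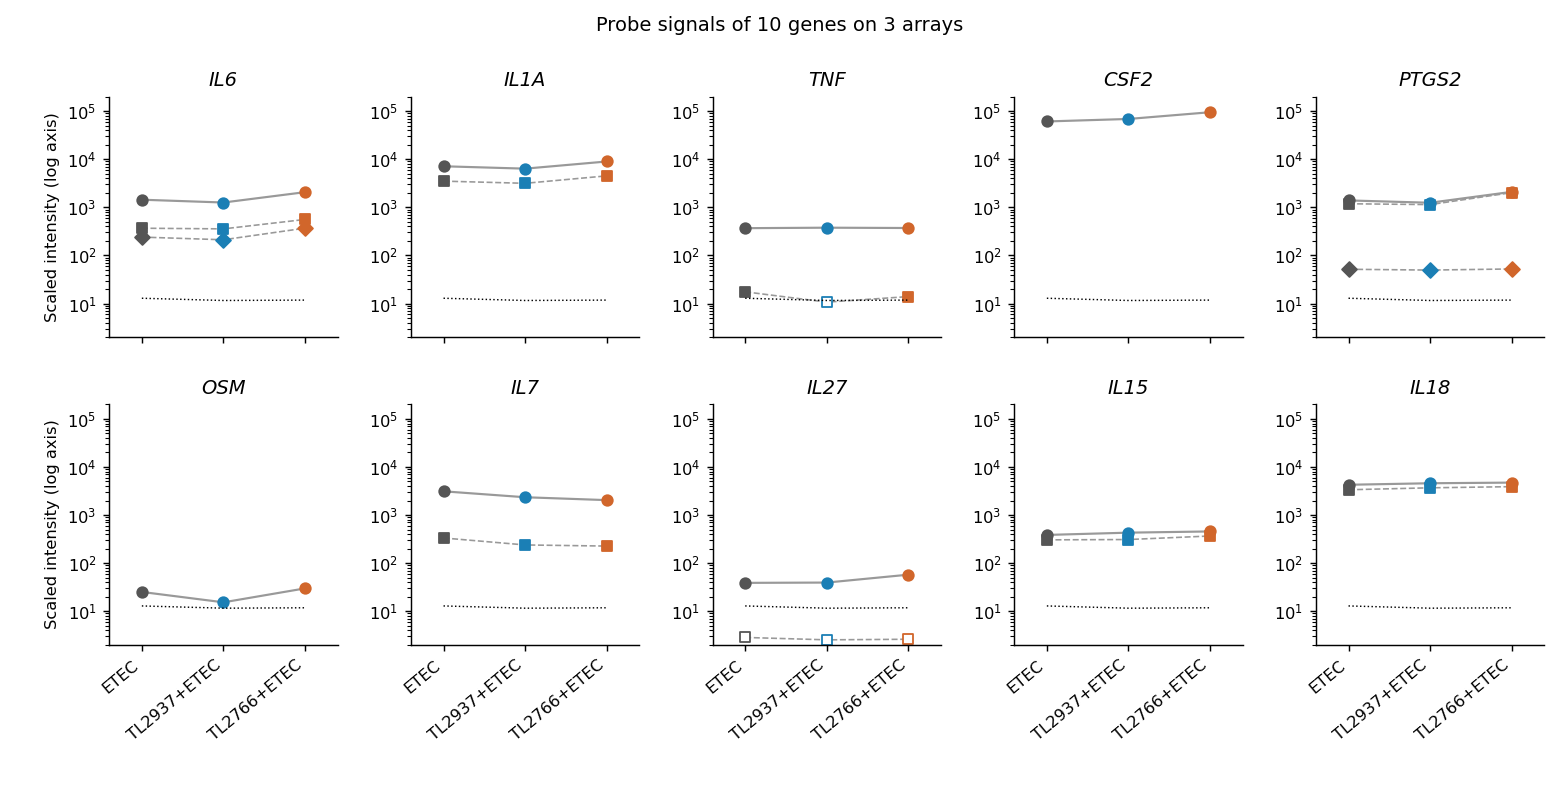
Scaled intensity (log axis) of the 20 probes of the 10 genes on the 3 arrays, 1 panel per gene. Each symbol shape is a probe, solid lines join the probe that stands for the gene, filled points were well above background, open points were not, and the dotted line is the lowest detected signal of each array. CSF2 is brightest on the TL2766+ETEC array at 95145, and IL7 is brightest on the ETEC array at 3116.

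IL6, CSF2, PTGS2, IL1A and IL27 were higher in the cells that had been kept with L. plantarum TL2766 than in cells without lactobacilli, by 1.26-fold to 1.56-fold. IL7 was lower by 1.52-fold, and OSM, IL15, IL18 and TNF were within 1.2-fold. OSM passed 1.2-fold with quantile (0.27) and cyclic loess (0.30) normalization, which call 6 genes higher. Thus 5 of 10 genes were called higher, where 8.09% of the 4942 genes measured on both arrays were, and 1 of 10 was called lower, where 8.92% were. The median difference of the 10 genes was 0.29, with 9 above 0, and that of all genes was 0.0015, with 50.4% above 0. At a threshold of 1.5-fold, CSF2 and PTGS2 were higher (1.44% of all genes) and IL7 lower (1.5%). None of the 10 reached 2-fold, which 0.324% of all genes did upward and 0.243% downward. In RNA from a whole culture, more cells of a kind and more transcript per cell cannot be told apart.

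With L. jensenii TL2937, IL6, IL1A, CSF2, PTGS2 and IL27 were within 1.2-fold of cells without lactobacilli. None of the 10 was called higher, where 7.27% of 4968 genes were, and 2 were called lower, OSM and IL7, where 12.4% were. IL6, IL1A and PTGS2 differed by -0.19, -0.16 and -0.16, less than the software's spot error of 0.20. Each difference was larger in size than 0.087, the median standard deviation between spots of replicated probes. The median difference was -0.070, with 5 genes above 0, and that of all genes was -0.039. At 1.5-fold OSM alone was lower, where 2.23% of all genes were, and none of the 10 was higher, where 1.07% were. At 2-fold no member was called, where 0.242% of all genes were higher and 0.141% lower. This comparison and the one above share the ETEC array.

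The pretreated cultures were also set against each other. IL6, IL1A, CSF2, PTGS2, OSM and IL27 were called higher with TL2766 than with TL2937, which is 6 of 10 genes, where 7.23% of 4982 genes were called. None was called lower, where 4.26% were. The median difference was 0.48 over the 10 genes and 0.043 over all genes. IL6, PTGS2 and OSM were higher at 1.5-fold, where 1% of all genes were, and none was lower, where 0.381% were. At 2-fold no member was called, where 0.201% of all genes were higher and 0.0803% lower.

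**Figure D2:**
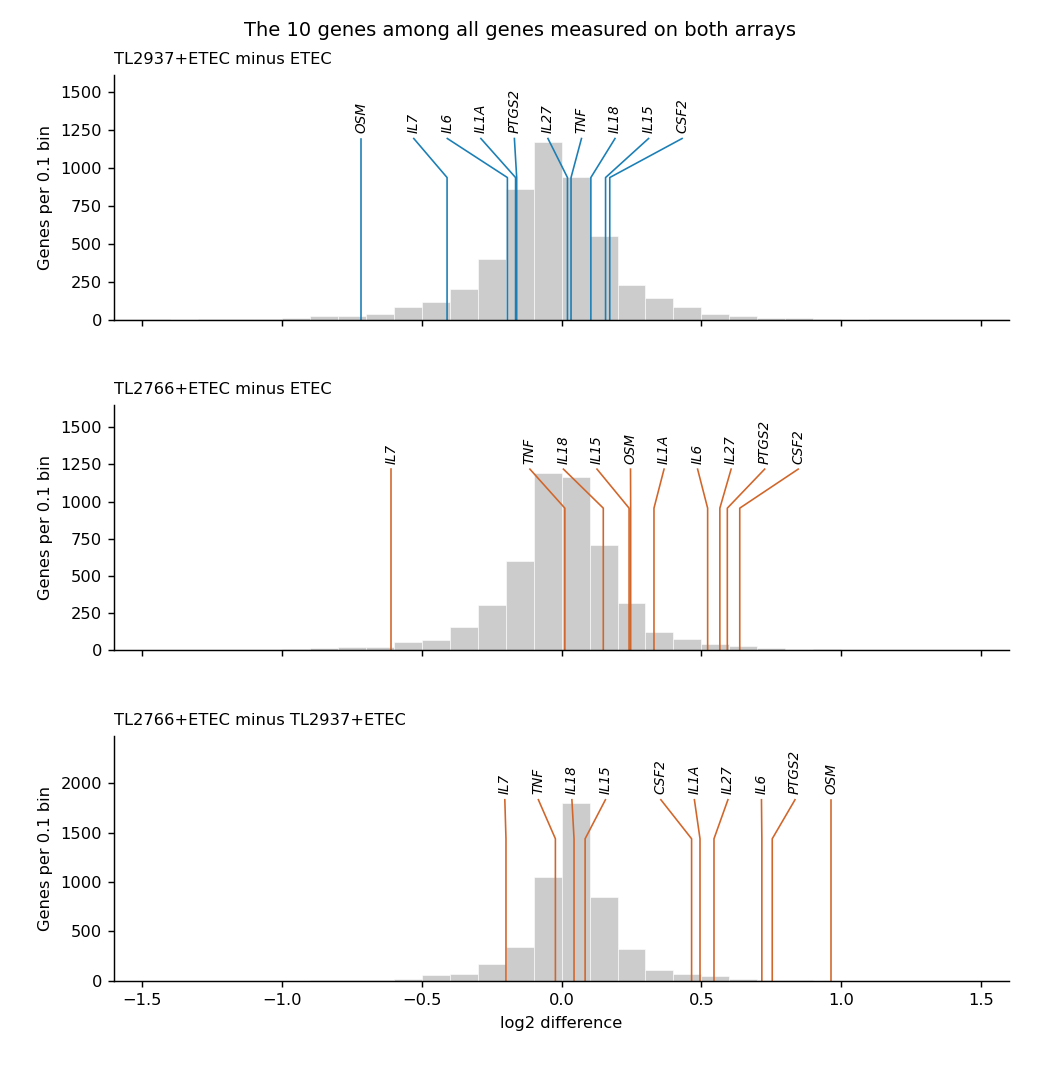
Histograms of the log2 difference over all genes measured on both arrays (bins of 0.1), 1 panel per comparison, with the 10 genes marked by lines. In the middle panel IL6, IL27, PTGS2 and CSF2 lie between 0.52 and 0.64 and IL7 at -0.61, while in the upper panel all but OSM and IL7 lie between -0.19 and 0.17.

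IL6 drives the acute phase response and the growth of B cells. Its brightest probe read 1442 in ETEC, 1260 in TL2937+ETEC and 2071 in TL2766+ETEC. The signal was thus lowest with TL2937 and highest with TL2766. Against ETEC, the difference was 0.52 for TL2766+ETEC and -0.19 for TL2937+ETEC, each with a spot error of 0.20.

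The other probes of IL6 gave the same order. One read 368, 357 and 560, and the dimmest probe read 241, 212 and 369. Their differences for TL2766+ETEC against ETEC were 0.61 and 0.62. Their differences against TL2937+ETEC were 0.65 and 0.80, beside 0.72 for the brightest probe. The 3 probes do not overlap, and each placed the TL2766+ETEC array above both others by 1.44-fold to 1.75-fold.

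PTGS2 makes the precursor of the prostaglandins. Its representing probe read 1393 in ETEC, 1246 in TL2937+ETEC and 2101 in TL2766+ETEC, and its overlapping neighbour 1188, 1141 and 2024. Again the TL2766+ETEC array stood alone at the top. The difference from ETEC was 0.59 by the first probe and 0.77 by the second (spot error 0.20 each), so that near-identical probes set it at 1.51-fold and 1.70-fold. The direct difference between the pretreated cultures was 0.75 and 0.83.

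Another probe, which names PTGS2 only in its description, did not show this. It read 51.5, 49.6 and 52.3 on the 3 arrays, with a difference of 0.02 for TL2766+ETEC against ETEC and a spot error of 0.24. Its 60 bases share no overlap with the other probes, and whether it reads the same transcript was not tested.

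CSF2 is the granulocyte-macrophage growth factor. Its probe read 61166 in ETEC, 68926 in TL2937+ETEC and 95145 in TL2766+ETEC with no saturated spot. The TL2766+ETEC array was again the highest. Against ETEC the difference was 0.64 with TL2766 and 0.17 with TL2937. The latter was within the software's spot error of 0.20 but above 0.087, the median standard deviation between spots of replicated probes. Between the pretreated cultures it was 0.47.

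IL1A is an alarm cytokine that is stored in epithelial cells and released when they are damaged. The brighter probe read 7152, 6380 and 8993, and the other read 3510, 3162 and 4517. Both probes placed TL2766+ETEC highest and TL2937+ETEC lowest. The difference for TL2766+ETEC was 0.33 and 0.36 against ETEC and 0.50 and 0.51 against TL2937+ETEC, with spot errors of 0.20. The probes thus gave nearly equal differences although 3 of their shared bases do not match.

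TNF, the cytokine that opens many inflammatory cascades, did not follow IL6. Its bright probe read 369 in ETEC, 377 in TL2937+ETEC and 372 in TL2766+ETEC, differences of 0.03 and 0.01 against ETEC with a spot error of 0.20. The dim probe read 17.5 in ETEC and 13.9 in TL2766+ETEC, close to the lowest detected signals of 12.9 and 11.8, and was not well above background on the TL2937+ETEC array. It gave -0.33 for TL2766+ETEC against ETEC with a spot error of 0.39. By the same probe the ETEC array was at least 1.51-fold above the TL2937+ETEC array, so that the probes of TNF disagreed. The bright probe stands for the gene in the counts above.

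OSM and IL27 both act through receptors that signal through STAT proteins, and both were dim. OSM read 25.1 in ETEC, 15.3 in TL2937+ETEC and 29.8 in TL2766+ETEC, where the lowest detected signals were 12.9, 11.6 and 11.8. Its difference was -0.72 with TL2937 (spot error 0.37) and 0.25 with TL2766 (spot error 0.30), and 0.96 between the pretreated cultures (spot error 0.36). With another background correction (normexp) these became -0.29, 0.0018 and 0.29. That setting adds an offset of 50 to every signal, more than any OSM level here, which by itself makes such differences smaller.

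IL27 read 38.8 in ETEC, 39.4 in TL2937+ETEC and 57.5 in TL2766+ETEC. The TL2766+ETEC array alone stood apart, by 0.57 from ETEC (spot error 0.26) and by 0.55 from TL2937+ETEC (spot error 0.24). With normexp the difference from ETEC was 0.25, under 1.2-fold, so that IL27 is then not called. The offset of 50 in that setting is near the IL27 levels and by itself makes the difference smaller. A second probe that names IL27 in its description was not well above background on any array.

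IL7, which keeps lymphocytes alive, was lower in both pretreated cultures. Its main probe stood at 5 places on each array, which gives the spread between spots. In ETEC the spots read 2811, 3075, 3147, 3204 and 3370. In TL2937+ETEC they read 2217, 2250, 2318, 2437 and 2519. In TL2766+ETEC they read 1899, 1997, 2043, 2075 and 2216. Every spot of the ETEC array was above every spot of the pretreated arrays, while the lowest TL2937+ETEC spot lay next to the highest TL2766+ETEC spot. The values above are sorted by size. Place by place, the TL2766+ETEC spot was below the TL2937+ETEC spot at all 5 places.

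The IL7 difference from ETEC was -0.41 with TL2937 and -0.61 with TL2766, and -0.20 between the pretreated cultures, each with a spot error of 0.20. That error is per spot and was not reduced for the mean of 5 spots. Over replicated probes, the median standard deviation of such a difference between spots was 0.087, 0.078 and 0.084, in that order. The second IL7 probe read 334, 239 and 226. It placed ETEC above both others by 1.40-fold and 1.47-fold. The pretreated cultures differed by -0.08 in this probe, less than its spot error of 0.21. IL7 was lowest on the array where IL6, PTGS2, CSF2 and IL1A were highest.

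**Figure D3:**
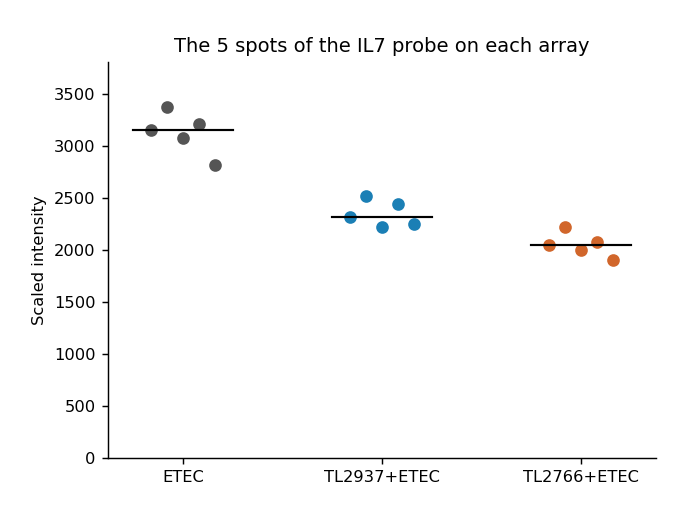
Scaled intensity of the 5 spots of the main IL7 probe on each array (points, linear axis from 0) with their median (bar). The 5 ETEC spots lie between 2811 and 3370, above all 10 spots of the pretreated cultures, and spots of 1 array are not replicate cultures.

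IL15 and IL18 lay within 1.2-fold by the probes that stand for them. IL15 supports natural killer cells and lymphocytes within the epithelium, and IL18 induces interferon gamma. The brighter IL15 probe read 386, 430 and 456, and the other read 305, 309 and 367. Their differences for TL2766+ETEC against ETEC were 0.24 and 0.27, on either side of the 1.2-fold threshold. The IL18 probes read 4263, 4584 and 4728, and 3356, 3684 and 3894, with differences of 0.15 and 0.21 for TL2766+ETEC against ETEC. In both genes the order of the arrays was ETEC, TL2937+ETEC, TL2766+ETEC from low to high. In the representing probes every step between neighbours was below the software's spot error, which was not measured from the spots. The steps from ETEC to TL2937+ETEC, 0.16 in IL15 and 0.10 in IL18, were above 0.087, the median standard deviation between spots of replicated probes. From ETEC to TL2766+ETEC, the IL15 difference of 0.24 was above its software error of 0.20, and the IL18 difference of 0.15 was below it.

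**Figure D4:**
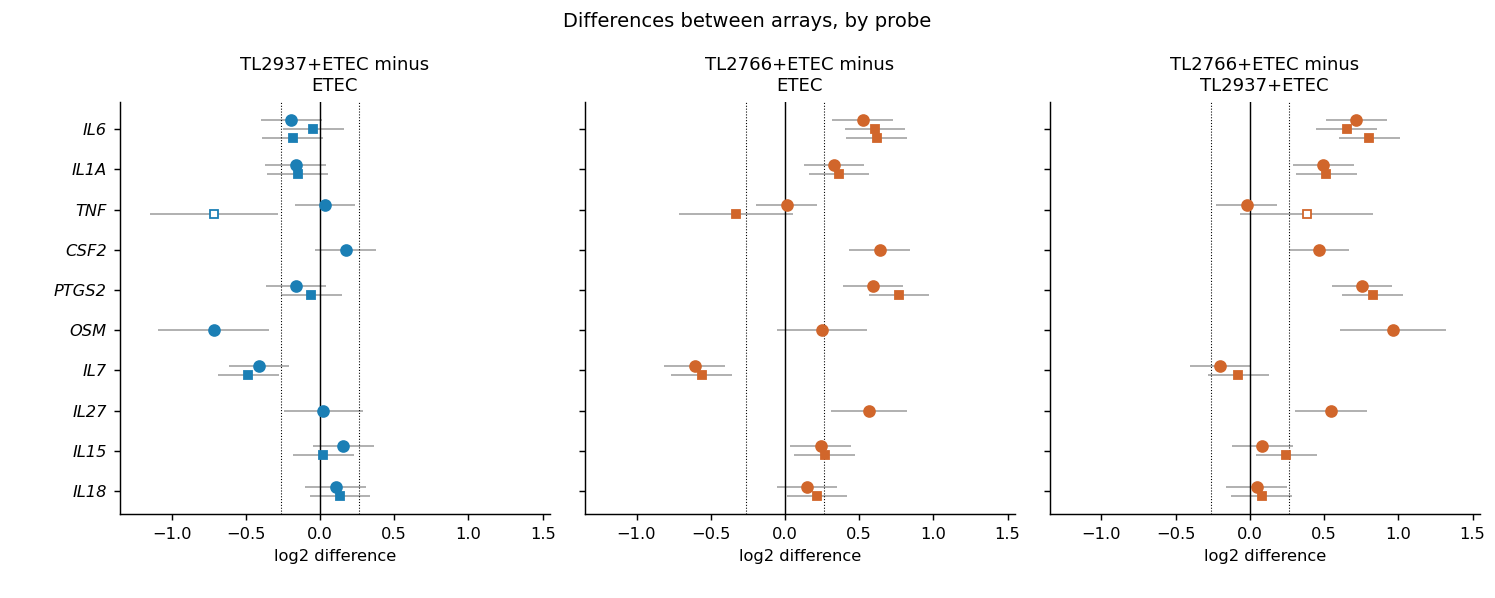
Log2 difference of each named probe in the 3 comparisons (bars: scanner software's spot error; dotted lines: 1.2-fold). Circles are the probes that stand for a gene, squares the others, and open symbols were below background on 1 of the arrays. All 3 IL6 probes and both named PTGS2 probes lie right of the upper dotted line in the middle and right panels, and both IL7 probes lie left of the lower one in the left and middle panels.

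The orders of the levels across arrays thus fell into 3 kinds. IL6, IL1A, PTGS2 and OSM were lowest with TL2937 and highest with TL2766. For the dim OSM the step from ETEC to TL2766+ETEC (0.25) was below its spot error of 0.30. CSF2, IL27, IL15 and IL18 were lowest in ETEC and highest with TL2766. IL7 was highest on the ETEC array, and the bright TNF probe gave values that spanned less than the spot error. Among IL6, IL1A, PTGS2, CSF2 and IL27, the lower 2 arrays differed by less than the software's spot error in each gene. The top array differed from them by more than that error. Only in IL27 was the difference of the lower 2 arrays also below 0.087, the median standard deviation between spots of replicated probes.

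The genes nearest to 4 members in pattern were listed by the distance between their pairs of log2 differences from ETEC, among 4914 genes well above background on all 3 arrays. With 3 arrays this is a likeness over 2 differences that share the ETEC array. Nearest to IL6 were NF1, which restrains RAS (-0.20 with TL2937 and 0.49 with TL2766), the nuclear membrane gene NRM (-0.19 and 0.58) and PTGS2 itself. Nearest to IL1A were the DNA repair helicase ERCC3 (-0.17 and 0.32), the chemokine CCL5 (-0.18 and 0.35) and the retinol carrier RBP4 (-0.14 and 0.36). Nearest to CSF2 were the mitochondrial cyclophilin PPIF (0.16 and 0.64), the calcium pump ATP2A3 (0.15 and 0.66) and the cytochrome CYP3A46 (0.20 and 0.62). Nearest to PTGS2 were NRM, the B cell adaptor BLNK (-0.12 and 0.56) and OSBPL7 (-0.23 and 0.60). Within a distance of 0.1 there were 6 genes for IL6, 18 for IL1A, 7 for CSF2 and 5 for PTGS2.

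Most receptors and antagonists of these cytokines were within 1.2-fold. Of 21 on the list, 8 had a probe and 5 were measured, with 1 higher and 0 lower in the TL2937 comparison and 1 higher and 1 lower in the TL2766 comparison with ETEC. Of all genes 7.27% were higher and 12.4% lower with TL2937, and 8.09% were higher and 8.92% lower with TL2766. TNFRSF1A, the main TNF receptor, differed by 0.25 with TL2937 and 0.34 with TL2766. IL6R, the IL6-binding chain, was dim (15.4 to 20.7) and differed by -0.04 and -0.42, while the signalling chain IL6ST differed by -0.18 and -0.19. TNFRSF1B, the second TNF receptor, differed by 0.27 and -0.01. Median differences of the list were 0.049 with TL2937 and -0.013 with TL2766, beside -0.039 and 0.0015 over all genes, against which the medians of the next lists can be read too.

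Genes of prostaglandin synthesis and reception, around PTGS2, lay on both sides of ETEC. Of 19 listed, 12 had a probe and 9 were measured, with 1 higher and 1 lower in the TL2937 comparison and 2 higher and 2 lower in the TL2766 comparison with ETEC. The shares of all genes were 7.27% higher and 12.4% lower with TL2937, and 8.09% and 8.92% with TL2766. PTGES, which turns the product of PTGS2 into prostaglandin E, read 839, 889 and 1034, a difference of 0.30 with TL2766. PTGIS, the prostacyclin synthase, differed by -0.38 and -0.44, and PTGS1, the constitutive cyclooxygenase, by -0.25 and -0.28. The dim receptor gene PTGER3 (24.8 to 34.1) differed by 0.46 and 0.36. The median of the list was -0.042 with TL2937 and 0.068 with TL2766.

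Among genes that process cytokines or activate such processing, 7 of 14 had a probe. Against ETEC 5 were measured with TL2937 and 6 with TL2766, and 6 between the pretreated cultures. None of those measured reached 1.2-fold. Of all genes 7.27% were higher and 12.4% lower with TL2937 than ETEC, and 8.09% and 8.92% with TL2766. Between the pretreated cultures the shares were 7.23% and 4.26%. CASP1 and NLRP3, given below, were not counted where an array did not pass the background flag. The protease gene CASP8 differed from ETEC by -0.17 with TL2937 and 0.04 with TL2766, and ADAM17, whose product sheds TNF, by -0.14 and -0.01. CASP1, which cuts the precursor of IL18, was dim: it read 28.3 in ETEC and 25.5 in TL2766+ETEC and was not well above background on the TL2937+ETEC array, at least 2.45-fold below ETEC. NLRP3, which activates CASP1, was not well above background on the ETEC array, and the TL2937+ETEC and TL2766+ETEC arrays were at least 2.22-fold and 2.1-fold above it.

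Most signalling genes that act before and after these cytokines were within 1.2-fold of ETEC, and so were most of all genes. With TL2937 7.27% of all measured genes were called higher and 12.4% lower, and with TL2766 8.09% and 8.92%. Of 15 NF-kB subunits and inhibitors 8 were measured, and all 8 were within 1.2-fold of ETEC in both comparisons, with medians of -0.053 and 0.10. IKBKG, IKBKB and TNIP1, parts or brakes of the pathway, differed by 0.26, 0.23 and 0.23 with TL2766, and NFKBIA, the inhibitor that NF-kB itself induces, by -0.16 with TL2937 and 0.10 with TL2766. Of 15 genes of JAK-STAT signalling 11 were measured, 9 of them within 1.2-fold with TL2937 and all 11 with TL2766. The feedback inhibitor SOCS2 differed by 0.32 with TL2937 and 0.21 with TL2766, STAT3 by -0.22 and -0.06, and STAT5B by 0.16 and 0.21.

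**Figure D5:**
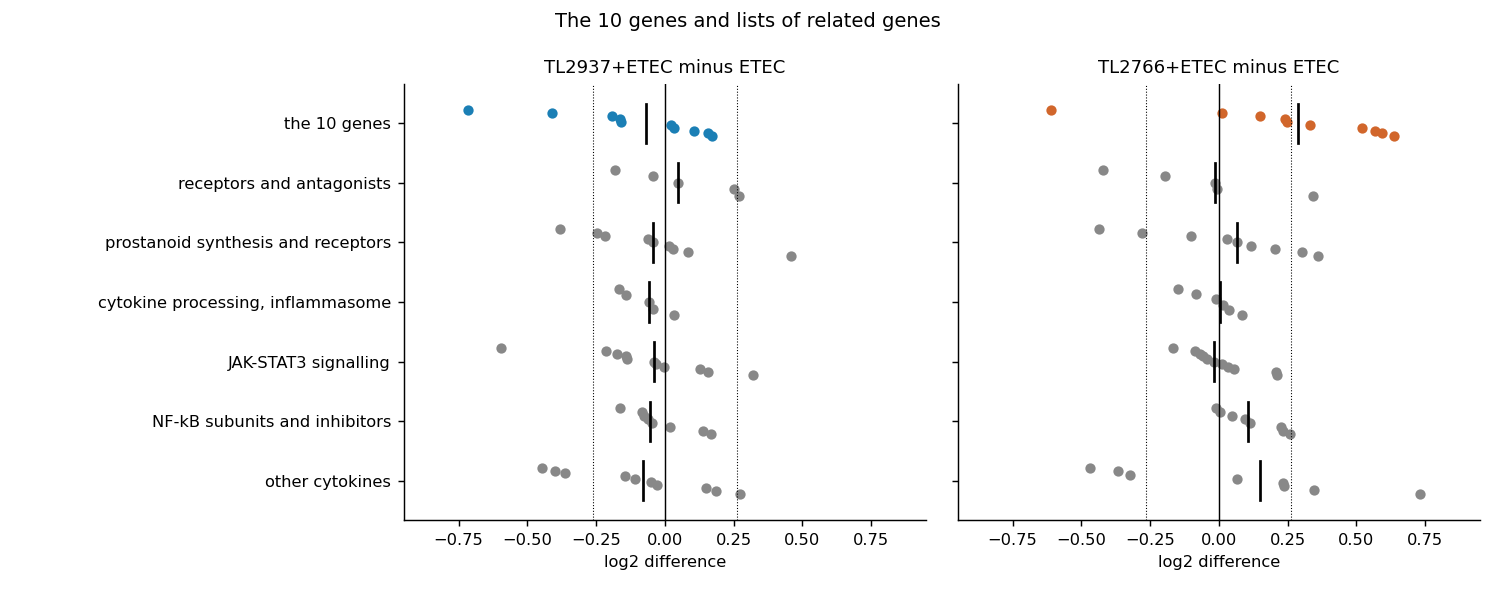
Log2 differences from ETEC of the 10 genes (coloured) and of the measured genes of 6 related lists (grey), 1 point per gene, with the median of each list as a bar and 1.2-fold as dotted lines. The 10 genes have a median of 0.29 in the TL2766 panel, and all 8 NF-kB genes lie between the dotted lines in both panels.

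Of 27 other cytokines 22 had a probe, and 12 of these were not well above background on any array, namely IL2, IL4, IL10, IL12A, IL12B, IL13, IL17A, IL19, IL21, IL22, IL23A and IFNG. TGFB3 was the only one past 1.5-fold: it read 59.0 in ETEC, 54.7 in TL2937+ETEC and 97.8 in TL2766+ETEC, differing by -0.11 and 0.73. TGFB2 (-0.40 and -0.37), the death ligand TNFSF10 (-0.36 and -0.32) and the B cell factor TNFSF13B (-0.45 and -0.47) were lower in both pretreated cultures. The dim IL5 differed by 0.15 and 0.35. IL1B, the partner of IL1A, was named after its values were seen. It read 17.1 and 16.5 on the ETEC and TL2937+ETEC arrays, near the lowest detected signals of 12.9 and 11.6. On the TL2766+ETEC array IL1B was not well above background, at least 1.32-fold below ETEC and 1.27-fold below TL2937+ETEC. The list had 1 higher and 3 lower of 10 measured genes in the TL2937 comparison and 2 higher and 3 lower of 8 in the TL2766 comparison with ETEC. The shares of all genes were 7.27% higher and 12.4% lower with TL2937, and 8.09% and 8.92% with TL2766.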

How the data were processed

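Expression was measured on 1-colour Agilent arrays, 1 per group, with 200 ng of Cy3-labelled RNA per the labels' protocols. The deposited processed intensity of each spot was made, per the file headers, with Agilent Feature Extraction 10.7.3.1, background-subtracted and detrended within the array. The deposited mean and background intensities served the normexp alternative. The authors' value table held the same intensities, on a linear scale and uncentred, within 0.496% on every array, with medians over all rows of 34.1, 37.7 and 35.7. The genome build was not given in the sources used here.

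Spots that were controls, or flagged as outliers (8 in ETEC, 9 in TL2937+ETEC, 4 in TL2766+ETEC), were dropped, and 0 spots were saturated. The log2 processed intensity minus its 75th percentile was taken, spots of a probe were averaged, and the named probe with the highest mean stands for a gene. Scaled intensities are multiplied by 481. A gene below background on 1 array has a bound. Of 43603 probes 13884 had a symbol, from the array and from a RefSeq table of Sscrofa11.1. Probe sequences were read from the deposited files, with no match to a genome.

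With 1 array per group no test was made, and the precision is limited by the number of arrays. The text names all 10 genes, the members of each related list past 1.5-fold with at most 4 others by size, and the 3 nearest genes in pattern to IL6, IL1A, CSF2 and PTGS2. A gene that this rule names is not reported here. The genes and lists were chosen with earlier results of these data known. Alternatives were normexp (offset 50), quantile, median and cyclic loess scaling, the authors' table, 2 other filters, thresholds of 1.5-fold and 2-fold, the mean of probes, and no removal of outliers. The scripts, tested on simulated data with planted differences, used limma 3.58.1 in R 4.3.3 and, in Python 3.11.15, pandas 2.3.3, numpy 2.4.6 and matplotlib 3.10.9.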

Additional observations from a re-analysis of the deposited data

How the results depend on the processing

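No paired analysis was possible because each group had 1 array. No replicate could be left out for the same reason. The count of genes lower with TL2937 than ETEC was 2 at 1.2-fold, 1 at 1.5-fold and 0 at 2-fold, and 1 when both arrays had to be above the median of detected probes, a filter that leaves 8 of the 10 genes. Those higher with TL2766 than ETEC numbered 5, 2 and 0 at the 3 thresholds, 4 at 1.2-fold with normexp and under the stricter filter, and 6 with quantile and cyclic loess normalization, which add OSM (0.27 and 0.30), and those lower numbered 0 at 2-fold. Those higher with TL2766 than TL2937 numbered 6, 3 and 0. The median difference between the pretreated cultures was 0.30 with normexp and 0.27 under the stricter filter, against 0.48. Of 264 values of single genes under the alternatives, 257 moved by less than the median standard deviation over 5 spots (0.087, 0.078 and 0.084 in the 3 comparisons), 7 moved by more and 0 called values changed sign. The 7 were OSM in all 3 comparisons and IL27 in 2 with normexp, and TNF (-0.16) and PTGS2 (0.68) for TL2766 against ETEC with the mean of probes. The normexp offset of 50 by itself makes differences of dim probes smaller. TNF, IL27 and IL18, all within 1.2-fold there, crossed 0 under some settings. No scaling moved the median of all genes by over 0.1. Dim probes, above all OSM, limit the precision.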
